A study of Mus musculus with 24 samples.

Results

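BCL2 family genes that decide whether thymocytes live or die were followed through the thymus of mice lacking p27, stathmin or both. A gene was included where a gene probe of the array carried its name, from a list of 9. Bcl2, Bcl2l1, Mcl1 and Bcl2a1a encode survival proteins, Bcl2l11, Bmf, Bad and Bid encode proteins that start cell death, and Bak1 encodes one that carries it out. Probes were found for 8 of these 9, of 27962 gene names on the array, and Bcl2a1a was not analysed here. The 8 genes had 19 probes, of 41174 gene probes. Each of the 19 passed the filter on dim probes (Cy5 signal well above background on at least 6 of 24 arrays), and 14 were well above background on all 24.

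Proteins of this family meet at the outer mitochondrial membrane. BCL2, BCL-XL (from Bcl2l1) and MCL1 restrain the pore-forming effectors BAK and BAX, while the BH3-only proteins BIM (from Bcl2l11), BMF, BAD and BID occupy the survival proteins or activate the effectors, and an open pore releases cytochrome c, which activates caspases. In the thymus, immature CD4 CD8 double-positive cells are known to depend on BCL-XL, mature T cells are known to depend on BCL2, and BIM is known for removing self-reactive cells.

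All mice were C57BL/6 and 15 weeks old, with 6 per genotype: wild type, p27 knockout (lacking Cdkn1b, which encodes an inhibitor of cyclin-dependent kinases), stathmin knockout (lacking Stmn1, which encodes a protein that destabilises microtubules) and double knockout (lacking both). There were 3 females and 3 males of each genotype, and which mouse was which sex was not used here. Every mouse had its own 2-colour array, with whole-thymus RNA in Cy5 and, in Cy3, a pool of fibroblast RNA from all the genotypes that was common to all arrays. The study asked, by its title, what p27 and stathmin do in the control of cell proliferation in the animal. Levels below are log2 ratios of Cy5 over Cy3, normalized within each array, so that 0 is the level of the fibroblast pool, and a level is compared only with levels of the same probe. In whole-thymus RNA, fewer cells of a type and less RNA per cell cannot be told apart.

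On the brightest Cdkn1b probe, A_51_P146126, the p27 knockouts had -0.66 to 0.99 and the double knockouts -1.41 to 0.97 (5 arrays). Both lay below all wild-type (1.37 to 2.19, 5 arrays) and stathmin knockout arrays (1.21 to 2.30). On the dimmer Cdkn1b probe A_51_P169173 p27 (-1.03 to -0.42) and double knockouts (-0.96 to -0.25) also lay below wild-type mice (-0.21 to 0.85). On the dimmer A_52_P673863 both p27 knockouts (-1.27 to -0.63) and double knockouts (-1.18 to 0.18) overlapped wild-type mice (-0.96 to -0.19). On Stmn1 A_52_P319161 the stathmin knockouts (-3.65 to -1.87) and double knockouts (-3.80 to -2.84) lay below all wild-type (2.69 to 3.35) and p27 knockout arrays (0.80 to 3.22). The brightest Stmn1 probe, A_51_P495641, was less far apart, with 3.22 to 3.89 in wild-type mice and -0.76 to 4.09 in p27 knockouts. It had 1.72 to 2.29 in stathmin knockouts and 1.22 to 2.87 in double knockouts. Array brightness, taken as the 99th percentile of Cy5 intensity, was 86.4 ± 53.2 kilounits (1000 intensity units) in p27 knockouts, 191 ± 92.0 in wild-type mice, 239 ± 71.8 in stathmin knockouts and 248 ± 45.1 in double knockouts (SD, n = 6 each). The p27 knockout replicates 5 (50.7 kilounits) and 6 (19.4) stood apart, with mean correlations of 0.557 and 0.209 with the other arrays, where the rest had 0.770 to 0.859. Counts are therefore also given without these arrays. The 15 double-positive thymocyte markers, all measured, had a median log2 ratio per array of 0.41 on p27 knockout replicate 6 and of 6.51 to 7.43 on the other p27 knockout arrays. The other genotypes had 5.58 to 6.81 (wild type), 5.13 to 7.01 (stathmin) and 5.91 to 6.48 (double).

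Bcl2, the survival gene of mature T cells, was best measured on probe A_52_P534870, which is printed 10 times on each array. Its 10 spots had a median SD of 0.0657 within an array, against an SD of 0.39 between mice within genotypes, pooled over the 4 genotypes. The lowest, median and highest levels were 0.36, 0.56 and 1.21 in wild-type mice and 0.36, 0.93 and 1.86 in p27 knockouts. They were 0.60, 0.68 and 1.56 in stathmin knockouts and 0.37, 0.64 and 1.24 in double knockouts. The 4 genotypes overlapped, and Bcl2 lay above the fibroblast pool on every array.

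The other Bcl2 probes were less alike. On A_51_P380013 the lowest, median and highest levels were 1.31, 2.16 and 2.53 in wild-type mice and 1.58, 2.77 and 5.80 in p27 knockouts. They were 1.14, 1.74 and 2.28 in stathmin knockouts and 1.31, 1.70 and 2.60 in double knockouts. The p27 knockouts held the highest value of all (5.80, replicate 5) but also one inside the range of every other genotype (1.58, replicate 6). On A_52_P438280 Bcl2 averaged 1.69 ± 0.74 in wild-type mice, 1.68 ± 1.59 in p27 knockouts, 1.71 ± 0.74 in stathmin knockouts and 2.00 ± 0.89 in double knockouts (SD, n = 6 each), and the reference channel was well above background on 12 of 24 arrays.

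Bcl2l1, which encodes BCL-XL, also had a probe printed 10 times, A_52_P148861. Its median SD was 0.104 between spots, and its SD between mice within genotypes, pooled in the same way, was 0.71. Its lowest, median and highest levels were 1.51, 2.23 and 2.93 in wild-type mice and -0.33, 2.48 and 3.00 in p27 knockouts. Stathmin knockouts had 1.65, 2.00 and 2.35 and double knockouts 1.36, 1.99 and 2.50. The value of -0.33 was that of p27 knockout replicate 6, and the other 5 p27 knockouts lay between 2.25 and 3.00. On the wild-type arrays Bcl2l1 was 4.63-fold above the fibroblast pool in the mean on this probe.

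On the single-spot probe A_52_P510877 Bcl2l1 had lowest, median and highest levels of -1.10, -0.32 and 0.33 in wild-type mice and -1.85, -1.41 and -0.93 in p27 knockouts. They were -1.33, 0.11 and 0.44 in stathmin knockouts and -1.06, -0.31 and 0.87 in double knockouts. The p27 knockouts were centred lowest and overlapped each other genotype. On A_51_P299454 the means were -1.63 ± 0.47 in wild-type mice, -1.72 ± 1.18 in p27 knockouts, -1.70 ± 0.58 in stathmin knockouts and -2.19 ± 0.31 in double knockouts. From mouse to mouse, the 10-spot probe of Bcl2l1 correlated with these probes by a Pearson r of 0.04 and 0.14 over 24 arrays.

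Mcl1 encodes a short-lived survival protein needed through T cell development. On A_51_P238786 its lowest, median and highest levels were 0.41, 0.93 and 1.35 in wild-type mice and -0.32, 0.56 and 1.13 in p27 knockouts. They were -0.03, 0.46 and 0.80 in stathmin knockouts and 0.45, 0.76 and 1.55 in double knockouts. All genotypes overlapped, with the single knockouts centred lower than the other 2 genotypes. On A_52_P93933 Mcl1 averaged 1.21 ± 0.31 in wild-type mice, 0.33 ± 1.43 in p27 knockouts, 0.94 ± 0.19 in stathmin knockouts and 1.02 ± 0.22 in double knockouts. The p27 knockout mean there included -2.54 on replicate 6, and without replicates 5 and 6 it was 1.00 ± 0.25 (SD, n = 4).

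**Figure D1:**
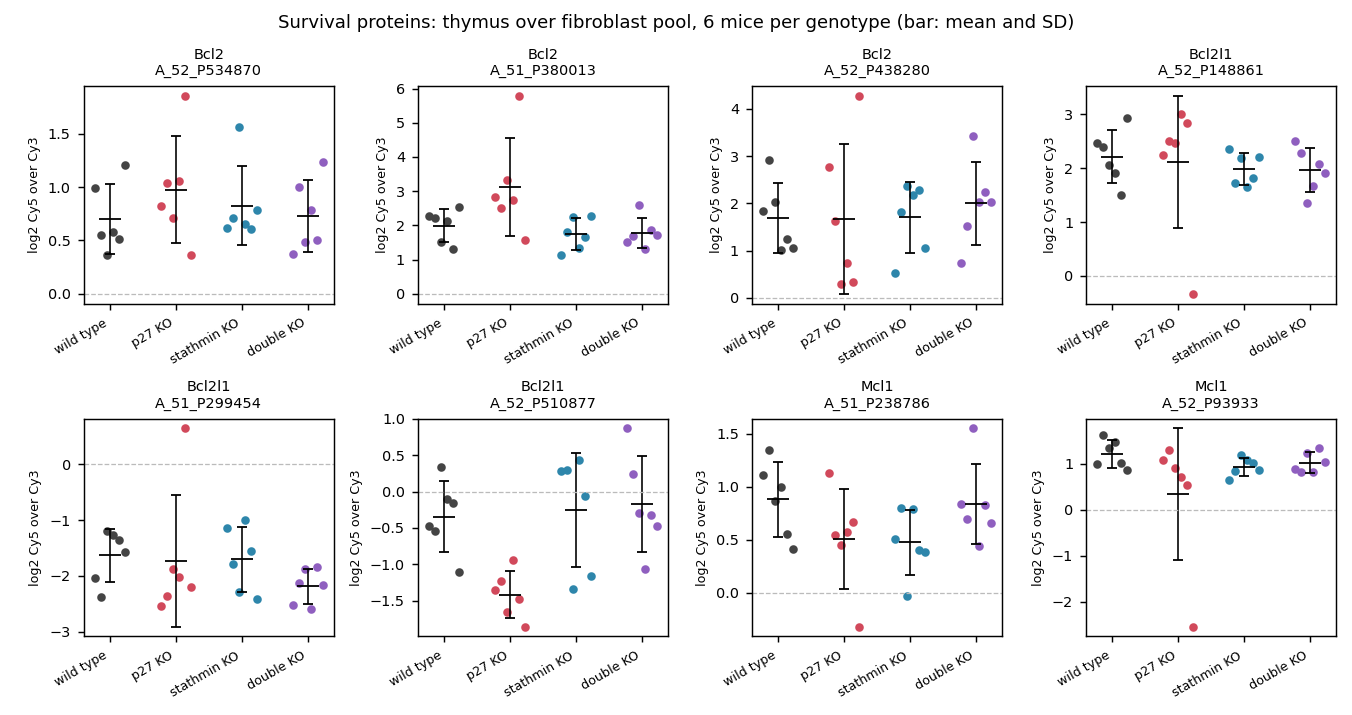
Log2 ratio of thymus (Cy5) over the fibroblast pool (Cy3) for the 8 probes of Bcl2, Bcl2l1 and Mcl1, a point per mouse by genotype, with bars for mean and SD (n = 6). On Bcl2l1 A_52_P148861 and Mcl1 A_52_P93933 p27 knockout replicate 6 lies far below the rest, at -0.33 and -2.54.

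Among the BH3-only genes, Bcl2l11 encodes BIM. On its brightest probe, A_52_P158527, the lowest, median and highest levels were 0.49, 0.71 and 1.08 in wild-type mice and -0.90, 1.17 and 1.59 in p27 knockouts. Stathmin knockouts had 0.25, 0.47 and 1.10, and double knockouts 0.36, 0.56 and 1.07. The genotypes overlapped, with p27 knockout replicate 6 alone below 0. Both dimmer Bcl2l11 probes showed another order. On A_51_P484880 the p27 knockouts lay between -2.50 and -1.39 and the double knockouts between -1.33 and -0.66, and on A_52_P348214 between -1.07 and -0.45 and between -0.24 and 0.46. Neither pair of ranges overlapped, while wild-type mice (-1.80 to -0.42 and -0.92 to 0.74) and stathmin knockouts (-1.79 to -0.48 and -0.52 to 0.68) reached into both. These dimmer probes varied together over the 24 arrays (r = 0.81), whereas each had r = 0.02 or -0.18 with the brightest one. On A_52_P348214 the reference channel was well above background on 5 of 24 arrays. The thymus channel of that probe was so on 21, and on 4 of the 6 p27 knockout arrays.

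Bmf, a BH3-only gene whose product is known to be held at the cytoskeleton, had lowest, median and highest levels on A_52_P384394 of 2.17, 2.58 and 3.35 in wild-type mice and -0.27, 2.86 and 3.67 in p27 knockouts. These came from 5 arrays each, because the scanner software marked an outlier spot on wild type replicate 1 and p27 knockout replicate 4. Stathmin knockouts had 1.36, 1.91 and 2.87 and double knockouts 1.80, 2.28 and 2.95, from 6 arrays each. The genotypes overlapped, again with p27 knockout replicate 6 alone below 0. On A_51_P482239 the p27 knockouts (0.17 to 3.90) all lay above the double knockouts (-0.27 to 0.14), with wild-type mice at 0.14 to 1.02 and stathmin knockouts at 0.01 to 0.75. The nearest arrays of p27 and double knockout were 0.17 and 0.14, so that the margin was narrow. On A_52_P78830 Bmf averaged -0.0012 ± 0.55 in wild-type mice, -0.37 ± 0.30 in p27 knockouts, 0.22 ± 0.50 in stathmin knockouts and 0.26 ± 0.41 in double knockouts. The reference channel of that probe was well above background on 0 of 24 arrays and the thymus channel on 10.

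Bad encodes a BH3-only protein that binds BCL2 and BCL-XL and is switched off by survival kinases. On its brighter probe, A_52_P614762, the lowest, median and highest levels were -1.16, -0.23 and 0.00 in wild-type mice and -1.61, -1.11 and -0.72 in p27 knockouts. They were -0.99, -0.05 and 0.27 in stathmin knockouts and -0.73, -0.29 and 0.43 in double knockouts. The p27 knockouts were lowest, and their highest array (-0.72) met the lowest double knockout (-0.73). On A_51_P419364 the p27 knockouts (-1.05 to -0.01) all lay below the double knockouts (0.37 to 1.96), and wild-type mice (-0.56 to 0.65) and stathmin knockouts (-0.72 to 1.31) reached into both ranges. The Bad probes varied together over the 24 arrays (r = 0.82, and 0.87 without p27 knockout replicates 5 and 6). On A_51_P419364 the reference channel was well above background on 14 of 24 arrays and the thymus channel on 23.

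Bid links death receptors to mitochondria once its product has been cut by caspase-8. Its single probe gave lowest, median and highest levels of 0.36, 0.42 and 0.81 in wild-type mice and 0.25, 0.30 and 0.64 in p27 knockouts. It gave 0.28, 0.43 and 0.81 in stathmin knockouts and 0.10, 0.50 and 0.61 in double knockouts. Bid was above the fibroblast pool on all 24 arrays, and the genotypes overlapped.

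Bak1, the pore-forming effector, had lowest, median and highest levels on A_51_P395011 of -0.10, 0.73 and 1.48 in wild-type mice and -0.05, 0.97 and 1.85 in p27 knockouts. It had 0.17, 0.65 and 1.07 in stathmin knockouts and -0.09, 0.84 and 1.18 in double knockouts. The genotypes overlapped on that probe. On Bak1 A_52_P225207 the p27 knockouts ranged from -0.57 to 2.00, with 1.35 and 2.00 on replicates 5 and 6. The double knockouts lay between -1.04 and -0.57, the stathmin knockouts between -0.85 and -0.35 and the wild-type mice between -0.91 and 0.17.

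**Figure D2:**
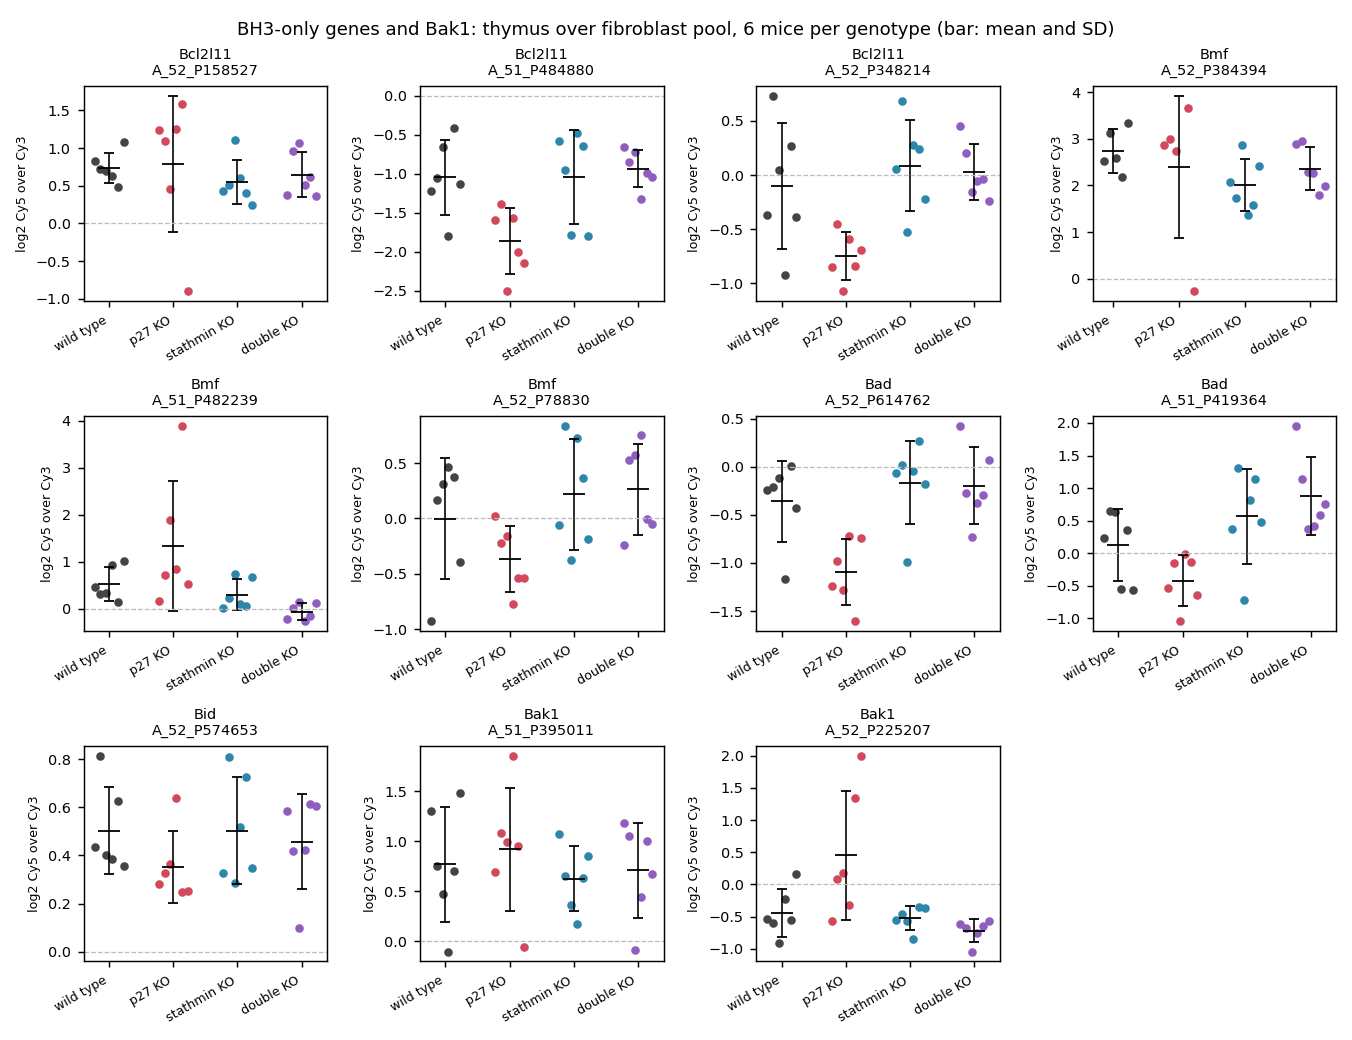
Log2 ratio of thymus (Cy5) over the fibroblast pool (Cy3) for the 11 probes of Bcl2l11, Bmf, Bad, Bid and Bak1, a point per mouse by genotype, with bars for mean and SD (n = 6, or 5 for Bmf A_52_P384394 in wild type and p27 knockout). The p27 knockouts lie below the double knockouts without overlap on Bad A_51_P419364 and on Bcl2l11 A_51_P484880 and A_52_P348214, and above them on Bmf A_51_P482239.

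Upstream sequences of 4 of these genes are shown because probes of Bad and Bcl2l11 passed as higher, and probes of Bcl2 and Bak1 as lower, in double against p27 knockouts. Each is, at the most upstream start listed for the gene, the 250 bases before the transcription start in RefSeq, build GRCm38.p6, read 5' to 3' on the gene's strand and matched by gene symbol. Capitals mark the GC box (GGGCGG, or CCGCCC on the other strand), which SP1-type factors are known to bind.
Bad (chr19:6941611-6941860, plus strand): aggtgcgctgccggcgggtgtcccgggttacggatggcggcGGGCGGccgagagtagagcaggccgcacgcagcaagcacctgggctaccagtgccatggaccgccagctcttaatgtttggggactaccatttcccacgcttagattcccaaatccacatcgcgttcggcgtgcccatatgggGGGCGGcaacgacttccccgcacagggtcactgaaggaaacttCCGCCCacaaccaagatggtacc
Bcl2l11 (chr2:128125788-128126037, plus strand): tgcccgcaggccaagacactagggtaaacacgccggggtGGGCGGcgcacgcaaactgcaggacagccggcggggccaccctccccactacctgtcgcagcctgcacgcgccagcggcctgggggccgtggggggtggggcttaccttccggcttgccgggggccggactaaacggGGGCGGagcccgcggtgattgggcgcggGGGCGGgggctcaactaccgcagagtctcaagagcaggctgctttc
Bcl2 (chr1:106714291-106714540, minus strand): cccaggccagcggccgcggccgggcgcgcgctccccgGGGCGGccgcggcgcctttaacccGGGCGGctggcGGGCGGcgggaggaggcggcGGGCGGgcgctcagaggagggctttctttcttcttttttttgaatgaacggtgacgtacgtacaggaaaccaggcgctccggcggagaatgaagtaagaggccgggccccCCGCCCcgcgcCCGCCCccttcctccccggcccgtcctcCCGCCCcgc
Bak1 (chr17:27028628-27028877, minus strand): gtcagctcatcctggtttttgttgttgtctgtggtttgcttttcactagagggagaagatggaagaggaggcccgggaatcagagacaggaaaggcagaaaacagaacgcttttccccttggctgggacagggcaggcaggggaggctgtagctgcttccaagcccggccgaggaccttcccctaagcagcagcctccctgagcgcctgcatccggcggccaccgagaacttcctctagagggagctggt
The window of Bad held 3 GC boxes, that of Bcl2l11 3, that of Bcl2 7 and that of Bak1 0. A GC box was in 6 of 14 windows of the 8 genes and in 32.7% of all 32851 windows. Of the genes with a probe that passed as higher in the double knockouts, Bad and Bcl2l11 had a window with it and Bcl2l1 had none, and of those with a probe that passed as lower, Bcl2 had one and Bmf and Bak1 had none. The FOXO motif (GTAAACA, both strands) was in 1 window, of Bcl2l11, and in 3.17% of all windows, and the E2F motif (TTTCGCGC, both strands) in 1 window, of Bcl2l1, and in 0.256% of all. The cAMP response element (TGACGTCA), the E-box (CACGTG) and the TATA box (TATAAA), on both strands, were in 0 of the 14 windows and in 1.55%, 6.02% and 12.4% of all. G and C made up 47.6% to 74.8% of these genes' windows, and 52.4% of all windows in the median.

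In p27 knockouts against wild-type mice, 0 of 19 probes had an adjusted p under 0.05 by limma's moderated test with Benjamini-Hochberg adjustment over 35185 probes, beside 0.00568% of all probes. At an unadjusted p under 0.05 there were 7 of 19, 2 higher and 5 lower, beside 29.3%. The lowest p values were those of Bcl2l1 A_52_P510877, with a log2 difference of -1.07 (SE 0.33, adjusted p = 0.0788), Bad A_52_P614762, with -0.74 (SE 0.24, adjusted p = 0.0795), and Bcl2l11 A_51_P484880, with -0.82 (SE 0.26, adjusted p = 0.0795). Each slide held 1 array of every genotype, and within slides Bcl2l1 A_52_P510877 and Bad A_52_P614762 were each lower in the p27 knockout on 6 of 6 slides and Bcl2l11 A_51_P484880 on 5 of 6. The median difference over the 19 probes was -0.15, against 0.07 over all probes.

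With p27 knockout replicates 5 and 6 left out, 0 of 19 passed (0.00284% of all probes), 5 of 19 had an unadjusted p under 0.05 (13.3%), and the 3 differences were -0.95, -0.70 and -0.72 (limma adjusted p = 0.374 for each). Single arrays mattered to the count. Dropping wild type replicate 6 gave 2 probes past the threshold (11.7% of all probes), and dropping p27 knockout replicate 1, 2 or 4 gave 3, 1 and 4 in turn (11.1%, 6.71% and 10.9% of all). With limma's array weights, which trust deviating arrays less, 6 probes passed, 2 higher and 4 lower, beside 11.7% of all. With the authors' deposited table as the values, 7 passed, all lower, beside 26.3% of all probes, whose median difference was then -0.57. Over all alternatives the adjusted p was 0.0302 to 0.907 for Bcl2l1, 0.0205 to 0.907 for Bad and 0.046 to 0.907 for Bcl2l11 on these probes.

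In stathmin knockouts against wild-type mice 0 of 19 probes passed, beside 0.00284% of all probes, and 0 of 19 had an unadjusted p under 0.05, beside 2.36%. Mcl1 A_51_P238786 had the lowest p, with a difference of -0.40 (SE 0.23, adjusted p = 0.9999) by limma and a lower level in the knockout on 6 of 6 slides. Its 95% interval ran from -0.88 to 0.07. Bmf A_52_P384394 differed by -0.74 (SE 0.48, adjusted p = 0.9999) and Bad A_51_P419364 by 0.44 (SE 0.33, adjusted p = 0.9999). On the 10-spot probes, Bcl2 differed by 0.12 (95% interval -0.36 to 0.61) and Bcl2l1 by -0.22 (95% interval -1.04 to 0.59).

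In double knockouts against wild-type mice 0 of 19 probes passed, beside 0.0114% of all probes, and 1 of 19 had an unadjusted p under 0.05, beside 4.6%. That probe was Bad A_51_P419364, with a difference of 0.75 (SE 0.33, adjusted p = 0.994) by limma. Bmf A_51_P482239 differed by -0.59 (SE 0.41, adjusted p = 0.9995) and was lower in the double knockout on 6 of 6 slides, and Bcl2l1 A_51_P299454 differed by -0.56 (SE 0.40, adjusted p = 0.9995). Neither knockout group here includes p27 knockout replicates 5 and 6, which enter through the shared estimate of the spread. Without them 0 of 19 passed for the stathmin knockout (0.0114% of all) and 0 of 19 for the double knockout (0.162%), and 1 (4.32%) and 3 (8.69%) had an unadjusted p under 0.05.

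**Figure D3:**
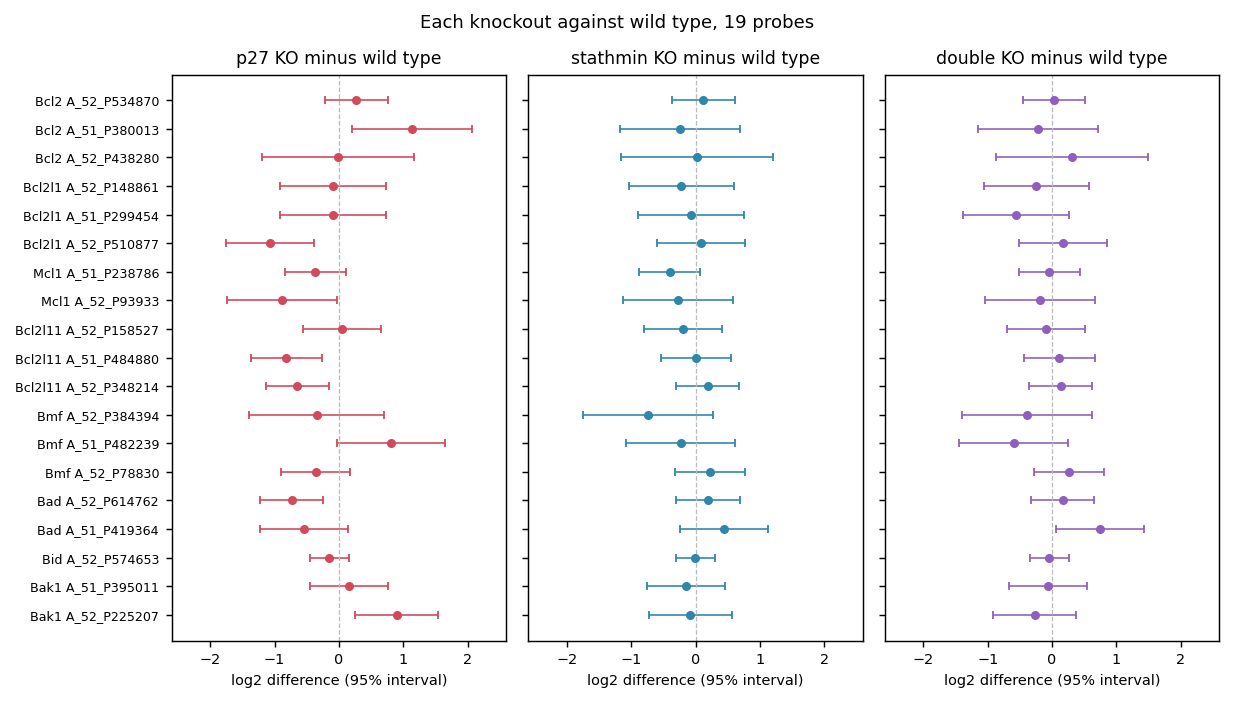
Log2 difference of each knockout from wild type for the 19 probes, a point per probe with its 95% interval. The interval takes the SE of the limma fit and the residual degrees of freedom of 24 arrays. None of the 19 has an adjusted p under 0.05. The points span -1.07 to 1.13 for the p27 knockout, -0.74 to 0.44 for the stathmin knockout and -0.59 to 0.75 for the double knockout.

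Bad, one probe of Bcl2l1 and the dimmer Bcl2l11 probes were higher in double than in p27 knockouts, and one probe each of Bmf, Bak1 and Bcl2 was lower. In this comparison 8 of 19 probes passed, 5 higher and 3 lower in the double knockouts, beside 30% of all 35185 probes (13.2% higher, 16.8% lower), so that a wide share of the array differed too. Bad was higher by 1.30 (SE 0.33, adjusted p = 0.0081) on A_51_P419364, that is 2.45-fold, and by 0.90 (SE 0.24, adjusted p = 0.00972) on A_52_P614762, that is 1.86-fold. Bcl2l1 was higher by 1.24 (SE 0.33, adjusted p = 0.0102) on A_52_P510877. Bcl2l11 was higher by 0.93 (SE 0.26, adjusted p = 0.0136) on A_51_P484880 and by 0.78 (SE 0.23, adjusted p = 0.0184) on A_52_P348214. All 5 probes were higher in the double knockout on 6 of 6 slides. For Bad A_51_P419364 and Bcl2l11 A_52_P348214 the reference channel was not well above background on many arrays, as given above. The sizes of these differences are therefore uncertain.

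Lower in the double knockouts were Bmf A_51_P482239, with a difference of -1.40 (SE 0.41, adjusted p = 0.0151), Bak1 A_52_P225207, with -1.17 (SE 0.31, adjusted p = 0.00999), and Bcl2 A_51_P380013, with -1.35 (SE 0.45, adjusted p = 0.0282). Bmf and Bak1 were lower on 6 of 6 slides and Bcl2 on 5 of 6. The 6 arrays against 6 did not overlap for 4 of the 19 probes (Bad A_51_P419364, Bmf A_51_P482239, Bcl2l11 A_51_P484880 and A_52_P348214), beside 12.7% of all probes. In the other comparisons 0 of 19 were free of overlap. The share of all probes was 0.682% for the p27, 0.156% for the stathmin and 0.969% for the double knockout against wild type, and 0.114% for double against stathmin knockout.

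Without p27 knockout replicates 5 and 6, 6 of 19 probes passed, 3 higher and 3 lower, beside 15% of all (6.05% higher, 8.99% lower). Bcl2l11 no longer passed, with differences of 0.83 and 0.77 (limma adjusted p = 0.0573 and 0.0513). Bad had 1.31 and 0.86 (adjusted p = 0.028 and 0.0309), and Bcl2l1 A_52_P510877 had 1.11 (adjusted p = 0.0465). The lower probes came nearer to 0, Bmf A_51_P482239 with -0.97, Bcl2 A_51_P380013 with -1.06 and Bak1 A_52_P225207 with -0.56 (adjusted p = 0.0238, 0.0236 and 0.0477). Bcl2 A_51_P380013 also missed the threshold when 1 array was left out, with adjusted p = 0.0527 without double knockout replicate 1, 0.0579 without double knockout replicate 4 and 0.0525 without replicate 5 of the p27 knockouts. Over all alternatives the adjusted p was 0.00283 to 0.664 and 0.00118 to 0.621 for the Bad probes and 0.003 to 0.597 for that Bcl2 probe. It was 0.00595 to 0.616 for Bcl2l1 A_52_P510877, 0.00972 to 0.734 and 0.00815 to 0.81 for the Bcl2l11 probes, 0.00324 to 0.597 for Bmf and 0.00321 to 0.741 for Bak1, the highest of each with brightness as a covariate.

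Probes of one gene gave different answers. Where Bcl2 A_51_P380013 fell, the 10-spot Bcl2 probe differed by -0.24 (adjusted p = 0.43 by limma) and A_52_P438280 by 0.32 (adjusted p = 0.68). Where Bcl2l1 A_52_P510877 rose, the 10-spot Bcl2l1 probe differed by -0.15 (adjusted p = 0.785). In the same fit the brightest Bcl2l11, Bmf and Bak1 probes differed by -0.14, -0.03 and -0.21 (adjusted p = 0.729, 0.964 and 0.596), and Bid by 0.10 (adjusted p = 0.596). Mcl1 differed by 0.33 and 0.69 (adjusted p = 0.272 and 0.199), the latter being 0.02 without p27 knockout replicates 5 and 6. Without those replicates the 10-spot Bcl2l1 probe had -0.59 (adjusted p = 0.101) and the brightest Bcl2l11, Bmf and Bak1 probes had -0.36, -0.50 and -0.44 (adjusted p = 0.182, 0.267 and 0.276), so that both Bak1 probes were then near each other (-0.44 and -0.56). With the brightest probe standing for each gene and adjustment over 24784 genes, 1 of 8 genes passed, Bad (adjusted p = 0.0102), beside 28.8% of all genes. With probes well above background on all 24 arrays, 4 of 14 passed, beside 29.2% of all such probes. With the groups compared fitted alone 5 of 19 passed, all higher, beside 16.5% of all, and with slide as a block 9 of 19 passed, beside 33.3%. With the authors' deposited table as the values, 12 of 19 passed, all higher, beside 52% of all.

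The probes that passed were the dim ones. Of the 11 probes with a mean log2 intensity under 12, at 7.54 to 11.2, 8 passed, and of the 8 at 12.3 to 15.9, 0 passed. Over all tested probes 32.9% under 12 and 23% at or over it passed. The value of 12 was chosen after the intensities were seen.

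**Figure D4:**
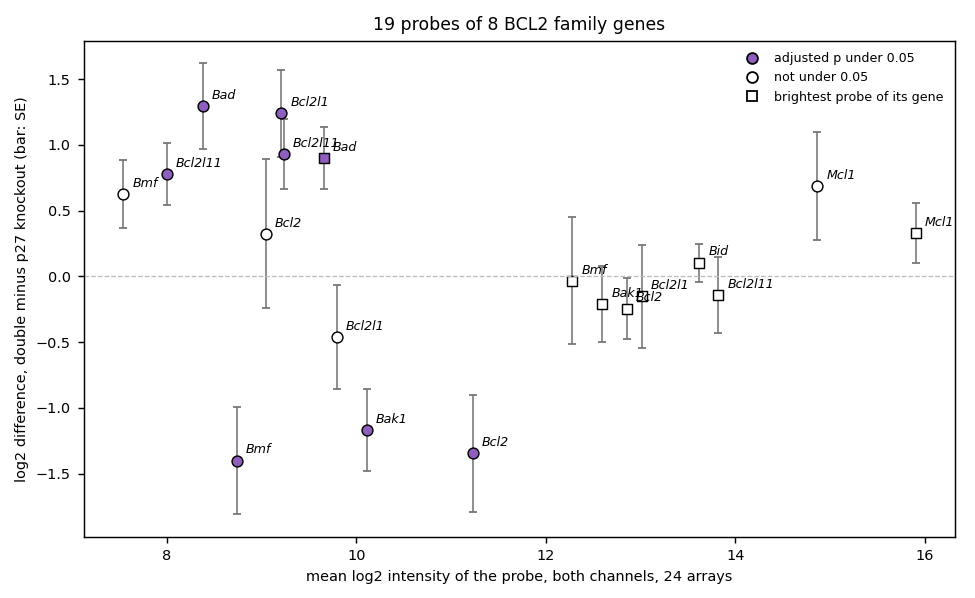
Log2 difference of double from p27 knockout for the 19 probes (bars: SE) against the mean log2 intensity of each probe over both channels and 24 arrays; filled points have an adjusted p under 0.05 and squares are the brightest probe of their gene. The 8 filled points lie at intensities of 11.2 or lower, and Bad is the filled square.

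Array brightness moved with several of these probes. The permutation tests below shuffled values across genotypes, so that a difference between genotypes can also lower their p-values. Bad A_51_P419364 correlated with the log2 of array brightness by Pearson r = 0.79 (adjusted permutation p = 6.33e-05, raw p = 1e-05) and Spearman rho = 0.88 (adjusted permutation p = 6.33e-05, raw p = 1e-05), over 24 arrays, two-sided and adjusted over the 19 probes. Without the arrays farthest from the median brightness, p27 knockout replicates 5 and 6, r was 0.88 over 22 arrays. Among the 18 arrays of the other 3 genotypes r was 0.84 (adjusted permutation p = 9.5e-05). On Bad A_52_P614762 r was 0.77 and rho 0.87 (adjusted permutation p = 7.6e-05 and 6.33e-05), with r = 0.88 over the 22 arrays and 0.82 over the 18 (adjusted permutation p = 0.00057). The dimmest array of its genotype was lowest on this Bad probe in wild type (replicate 4), stathmin knockout (replicate 3) and double knockout (replicate 3), while in p27 knockouts it ranked 5 of 6 from below.

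Bcl2l11 A_52_P348214 had r = 0.82 and rho = 0.94 (adjusted permutation p = 6.33e-05 and 6.33e-05), r = 0.91 over the 22 arrays, and r = 0.88 among the 18 arrays without p27 knockouts (adjusted permutation p = 9.5e-05). Bmf A_51_P482239 ran the other way, with r = -0.58 and rho = -0.71 (adjusted permutation p = 0.0306 and 0.000538), r = -0.72 over the 22 arrays, and r = -0.76 among those 18 arrays (adjusted permutation p = 0.00119). Over the 24 arrays 9 of 19 probes had an adjusted permutation p under 0.05 for Pearson's r, and without p27 knockouts 5 of 19. This test was run on the 19 probes only, so that no share of all probes stands beside these counts. Such relations were common on the array, where 51.8% of all tested probes had r beyond 0.5 in either direction. With array brightness as a covariate, added after seeing the data, 0 of 19 probes passed in double against p27 knockouts, and 1 of 35185 (0.00284%) in all. There Bad differed by 0.42 and 0.40 (limma adjusted p = 0.664 and 0.621). The p27 knockouts were also the dimmest genotype, at 19.4 to 171 kilounits against 200 to 320 in double knockouts. Brightness and genotype therefore cannot be told apart in this comparison.

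**Figure D5:**
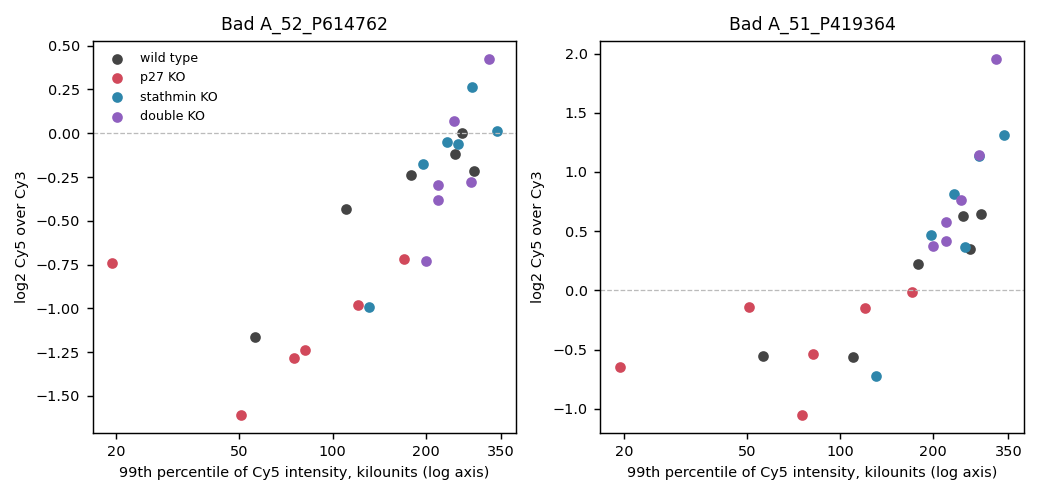
Log2 ratio of both Bad probes against array brightness (99th percentile of Cy5 intensity in kilounits, log axis), a point per mouse, coloured by genotype. Wild type replicate 4 (56.3 kilounits) lies at -1.16 on A_52_P614762 and stathmin knockout replicate 3 (131 kilounits) at -0.99, within the range of the p27 knockouts (-1.61 to -0.72).

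Levels of marker genes of several cell types are given for the same genotypes. The 10 mature T cell markers, all measured and 0 of them below background throughout a genotype, had a median log2 ratio per array of -0.13 to 2.54 in p27 knockouts and 3.38 to 3.69 in double knockouts, without overlap. It was 1.13 to 3.88 in wild-type mice and 1.40 to 3.97 in stathmin knockouts. Their summed ratio was 12.2 to 359 in p27 knockouts, 177 to 298 without replicates 5 and 6, 149 to 172 in double knockouts, 113 to 256 in wild-type mice and 68.9 to 194 in stathmin knockouts. Fibroblast markers (12 of 12 measured, 0 of them below background throughout a genotype) had medians of -3.62 to -0.95 in p27 knockouts and -4.26 to -3.07 in double knockouts. Their summed ratio was 5.66 to 10.2 in p27 knockouts, 3.88 to 6.86 in double knockouts, 4.6 to 7.92 in wild-type mice and 3.72 to 6.77 in stathmin knockouts. Macrophage and granulocyte markers (11 of 12 measured) had medians of -0.35 to 0.40 in p27 knockouts, and 0.11 to 0.40 without replicates 5 and 6. These medians were 0.19 to 1.35 in double knockouts, -0.61 to 1.67 in wild-type mice and -0.02 to 2.24 in stathmin knockouts. Their summed ratio was 14.9 to 283 in p27 knockouts, and 71.1 to 198 without replicates 5 and 6. It was 24 to 56 in double knockouts, 25.8 to 94.8 in wild-type mice and 23 to 143 in stathmin knockouts. Between p27 and double knockouts the medians and the sums thus went opposite ways, since strong markers weigh most in a sum. The part of these cells in the differences of Bad, Bcl2l11, Bcl2l1, Bmf, Bak1 and Bcl2 was not tested.

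In double against stathmin knockouts 0 of 19 probes passed, beside 0.00568% of all, and 0 of 19 had an unadjusted p under 0.05, beside 1.16%. Mcl1 A_51_P238786 differed by 0.36 (SE 0.23), Bcl2l1 A_51_P299454 by -0.49 (SE 0.40) and Bad A_51_P419364 by 0.31 (SE 0.33), each with a limma adjusted p of 0.9999. With array weights the Bad difference was -0.18. The interaction, which asks whether the double knockout departs from the sum of both single losses, had 0 of 19 probes past the threshold, beside 0% of all. At an unadjusted p under 0.05 there were 5 of 19, 4 above and 1 below 0, beside 18.3%. Bcl2l11 A_51_P484880 had an interaction of 0.93 (SE 0.37, adjusted p = 0.257), Bak1 A_52_P225207 of -1.09 (SE 0.44, adjusted p = 0.257) and Bcl2l1 A_52_P510877 of 1.15 (SE 0.47, adjusted p = 0.257). With p27 knockout replicates 5 and 6 left out, 0 of 19 passed in double against stathmin knockouts (0.00284% of all) and 0 of 19 for the interaction (0% of all). An unadjusted p under 0.05 was then found for 0 (2.66%) and 3 (9.8%). These comparisons share samples.

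The spread between mice was widest in p27 knockouts on 12 of the 19 probes, as it was on 68.5% of all tested probes. The median SD over the 19 probes was 0.62 in p27 knockouts, 0.47 in wild-type mice, 0.42 in stathmin knockouts and 0.38 in double knockouts.

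Other genes of the pathway were counted in double against p27 knockouts, where 30% of all probes passed. Of the other BCL2 family, 3 of 16 probes (13 of 16 listed genes) were higher and 0 lower. They were Bcl2l14, higher by 1.34 and 1.09 (limma adjusted p = 0.0106 and 0.0254), and the BH3-only gene Bik, higher by 1.25 (adjusted p = 0.0139). Without p27 knockout replicates 5 and 6 these were 1.09, 0.86 and 0.89 (adjusted p = 0.055, 0.0882 and 0.0904). Bax, the partner of Bak1, differed by 0.18 (adjusted p = 0.544). Bcl2a1b, a close relative of Bcl2a1a that could share its signal, had means of 2.21 in wild-type mice, 2.22 in p27 knockouts, 2.40 in stathmin knockouts and 2.68 in double knockouts, and differed by 0.47 (adjusted p = 0.332).

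Downstream of the mitochondria, 10 of 33 apoptosome and caspase probes were higher and 1 lower in the double knockouts. Apaf1, the scaffold of the apoptosome, was higher by 1.10 on 1 of 3 probes, and Dffa, which encodes the inhibitor of a DNA-cutting nuclease, on 2 of 3 by 1.57 and 1.10 (limma adjusted p = 0.0261, 0.0038 and 0.0234). With p27 knockout replicates 5 and 6 left out, Apaf1 had 0.53 and Dffa 1.33 and 0.44 (adjusted p = 0.152, 0.0229 and 0.182). Htra2, which encodes a mitochondrial protease, had a difference of -0.42 (adjusted p = 0.047). Of the death receptor probes, 6 of 21 were higher, among them Fasl, the ligand of the receptor FAS, by 1.19 on 1 of 2 probes (adjusted p = 0.0103), and 3 were lower, all of the TRAIL receptor gene Tnfrsf10b. Of the upstream signals, 8 of 44 probes were higher and 3 lower. Il7, a cytokine known to maintain Bcl2, was higher by 2.32 and 1.60 (adjusted p = 0.00239 and 0.0294), and its receptor gene Il7r by 1.58 on 1 of 3 probes (adjusted p = 0.00965). With those replicates left out, Il7 A_51_P391454, of the 1.60 above, had 0.89 (adjusted p = 0.0487). Trp53, which encodes p53, an inducer of several BH3-only genes, had a difference of -2.36 on A_52_P781398 (adjusted p = 0.00394) and of 0.54 on A_52_P491849 (adjusted p = 0.248). Nr4a1, a gene switched on by T cell receptor signals, was lower in the double knockouts, with a difference of -1.05 (adjusted p = 0.00403). For Htra2, Fasl, Tnfrsf10b, Il7r, Trp53, Nr4a1 and the other Il7 probe, only values over all arrays are given. Fewer death receptor probes passed without p27 knockout replicates 5 and 6, as counted below.

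Without p27 knockout replicates 5 and 6, where 6.05% of all probes were higher and 8.99% lower, 0 of 16 probes of the other BCL2 family were higher and 1 lower, and 2 of 33 apoptosome and caspase probes were higher and 2 lower. Of 21 death receptor probes 2 were higher and 1 lower, and of 44 upstream signal probes 4 were higher and 6 lower. The median difference with all arrays was 0.15, 0.41, 0.07 and 0.58 for these lists in turn, against 0.10 for the 19 probes and -0.08 for all probes. Without those replicates it was 0.20, 0.21, -0.01 and 0.11, against 0.02 for the 19 probes and -0.07 for all. In the other comparisons 0 probes of these lists passed by limma. At an unadjusted p under 0.05 there were, for these lists in turn, 3, 10, 5 and 10 in p27 knockouts against wild type (29.3% of all probes) and 2, 1, 0 and 0 in stathmin knockouts against wild type (2.36%). There were 2, 1, 2 and 2 in double knockouts against wild type (4.6%), 0, 0, 0 and 0 in double against stathmin knockouts (1.16%) and 3, 6, 5 and 6 for the interaction (18.3%).

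The genes of most similar pattern were, for the brightest probe of each member, the 2 other genes with the highest Pearson correlation over the 24 arrays, a chosen description with no test. They were Dis3l (0.86) and Rnf168 (0.86) for Bcl2, Dhx35 (0.96) and Cep41 (0.95) for Bcl2l1, and Dcaf7 (0.87) and Brd9 (0.87) for Mcl1. For Bcl2l11 they were Eif2c3 (0.94) and Pan3 (0.93), for Bmf, over 22 arrays, Luc7l3 (0.91) and Maml1 (0.91), and for Bad Castor1 (0.91) and Rilp (0.89). Bid had Gdf3 (0.85) and Rpusd3 (0.78), and Bak1 had Tmem222 (0.96) and Dtnb (0.90). Without p27 knockout replicates 5 and 6 these correlations lay between 0.76 and 0.97. Among the members, Bcl2l1 went with Bmf (r = 0.87 over 22 arrays, 0.67 without those replicates) and with Bak1 (r = 0.76 over 24 arrays, 0.83 without them). All arrays share the reference pool and differ in brightness.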

How the data were processed

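Genotype and replicate number came from the sample labels. The authors deposited, for each array, the spot and background intensity of either channel, read by Agilent Feature Extraction 9.1.3.1 according to the file headers. The deposited files also hold log10 ratios of Cy5 over Cy3 that this software had normalized. A deposited table of log2 values has no stated making. Set against the arrays, its columns had r of at least 0.9999 with mean log2 brightness and at most 0.0447 with the log2 ratio, and medians of 8.62 to 10.6. It holds brightness on a log2 scale with unknown centring and no direction, and was only an alternative.

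The intensities were corrected with normexp (offset 50) and loess within each array in limma (version 3.58.1, R 4.3.3, data.table version 1.17.8), with control spots at weight 0, outlier spots left out and spots of a probe averaged. Probes with Cy5 well above background on at least 6 of 24 arrays were tested (35185 of 41174). One limma model held all 24 arrays with genotype as its only term, and p-values were adjusted by Benjamini-Hochberg over all tested probes (threshold 0.05). The offset understates changes of dim probes. The number of arrays, 6 per genotype, limits the precision. A genotype always had the same place on its slide, which leaves place and genotype inseparable. Permutation tests against brightness were two-sided with 100000 resamples, and 1e-05 is the smallest p they can give. They shuffled values across genotypes, also where the p27 knockouts were left out, and so do not separate brightness from genotype.

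All 19 probes are described. Full statistics are given for probes past the threshold and for the 3 with the lowest p in each comparison. The 2 most similar genes leave out predicted and clone names, Xist, Tsix and Y-linked genes. Members, lists and tests were chosen with earlier results of these data known. In simulated data for double knockout against wild type (35185 probes), 35 of 100 changes of log2 1 and 80 of 100 of log2 2 were recovered, with 6 false calls.

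Alternatives were no background subtraction, Agilent's ratio after centring, Cy5 by itself, scaling between arrays, the deposited table, no filter and a stricter filter, the brightest probe per gene, slide or replicate number as a block, array weights, the groups compared by themselves, and leaving out arrays. Brightness as a covariate was chosen after seeing the data.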

Additional observations from a re-analysis of the deposited data

Results flagged for a closer look

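In 9 of 76 groups, over the 19 probes and 4 genotypes, 1 array lay so far from the others of its genotype that its gap exceeded Dixon's critical value (0.625 for 6 arrays). Chance flags about 1 in 20 groups. Of the 9, 5 were p27 knockout arrays, 3 of them replicate 6, and 7 lay on the slide that holds replicate 3 of the other genotypes and p27 knockout replicate 6.

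On p27 knockout replicate 6, Bcl2l1 A_52_P148861 was -0.33 (others 2.25 to 3.00), Mcl1 A_52_P93933 was -2.54 (others 0.53 to 1.30) and Bmf A_52_P384394 was -0.27 (others 2.74 to 3.67). On p27 knockout replicate 5, Bcl2l1 A_51_P299454 was 0.64 (others -2.53 to -1.88). On p27 knockout replicate 4, the brightest array of its genotype (171 kilounits), Bid was 0.64 (others 0.25 to 0.37).

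On stathmin knockout replicate 3, Bcl2 A_52_P534870 was 1.56 (others 0.60 to 0.79) and Bad A_52_P614762 was -0.99 (others -0.18 to 0.27). On double knockout replicate 3, Mcl1 A_51_P238786 was 1.55 (others 0.45 to 0.84) and Bid was 0.10 (others 0.42 to 0.61). Each was the dimmest array of its genotype, at 131 and 200.2 kilounits.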

How the results depend on the processing

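Of the alternative values of the counts of the 19 probes that passed, 217 stayed within 1.5 times the main count and 10 did not. The main count was 0 in all comparisons but double against p27 knockouts, and 0 in an alternative then counted as the same. The 217 therefore say little about how steady a count above 0 is. In double against p27 knockouts, where 8 passed, the count was 4 with probes well above background on all 24 arrays (14 of the 19), 1 with the brightest probe per gene, 5 with the groups compared fitted alone and 0 with brightness as a covariate. Leaving out each array gave 7 to 9. The share of all probes in those fits is not given here and was 30% in the main fit. The count of 7 to 9 therefore shows nothing particular to these genes. In p27 knockouts against wild type, where 0 passed, the count was 7 with the authors' deposited table and 6 with array weights, and leaving out each array gave 0 to 4. The share of all features was 29.2%, 28.8%, 16.5% and 0.00284% under the settings for double against p27 knockouts, in that order, and 26.3% and 11.7% with the deposited table and array weights. With the replicate number as a block the counts were 8 in double against p27 knockouts and 0 in the other comparisons, and no call changed. The share of all probes in that fit is not given here either. Of the values of single probes, 802 kept direction and side of the threshold, 21 fell short of it, 13 passed it and 6 reversed. Same-numbered arrays of wild type, stathmin and double knockouts shared a slide, and the p27 knockout of that number lay on another. Best correlations were with the same number for 3 of 24 arrays and with the same slide for 8 of 24. The deposited table follows brightness. Values that turned sign with it were Mcl1 A_51_P238786 in stathmin knockouts against wild type (0.0552), Bcl2 A_51_P380013 (0.46) and Bak1 A_52_P225207 (0.33) in double against p27 knockouts, Bak1 A_52_P225207 in the interaction (0.23) and Bad A_51_P419364 in double against stathmin knockouts (-0.22, and -0.18 with array weights). The cause was not tested. Simulated with 6 arrays per genotype and 1 spread per probe for every genotype, a log2 change of 1 was recovered for 35 of 100 probes. Other numbers of arrays were not simulated.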

Other observations

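Bid and both genes of most similar pattern, Gdf3 and Rpusd3, lie on chromosome 6, as does Cdkn1b, the gene missing in the p27 knockouts. In the order of the genes measured here Bid is 17 genes from Gdf3, 78 from Rpusd3 and 154 from Cdkn1b. Among the similar genes of the other members whose position was known, Dhx35 lies on the chromosome of its member, Bcl2l1 (chromosome 2), and the others do not (no chromosome was matched for Eif2c3). This was noticed after the values were seen and carries no test.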
